A study of Drosophila melanogaster with 12 samples.

Results

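Fatty acid synthesis genes were described in whole Drosophila melanogaster females that stayed virgin, mated a single time, or mated on 2 successive days. The 8 genes, AcCoAS, ATPCL, ACC, FASN1, FASN2, Desat1, SREBP and Lpin, were taken by name from the platform annotation, and each was represented by its 1 probe set with a single gene symbol. They are 8 of 11982 genes that the annotation names as the single symbol of a probe set, and 8 of 18769 probe sets tested. The probe set names of ATPCL, Desat1 and SREBP end in _s_at, and signal from other transcripts was not tested.

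The flies came from LHM, a large outbred laboratory population, and were collected as virgins on day 9 after egg laying. Virgin females never met a male. Double mated females were paired for 60 minutes on day 12 and mated again on day 13, and single mated females were left without males on day 12 and are taken to have mated on day 13, since the description of the treatments breaks off there. All 3 groups carried no transgene or mutation, received 0.375 mg of live yeast per female on day 12, were housed singly and were briefly anaesthetised with carbon dioxide on that day. The males were crosses between 2 inbred lines derived from the same population. Mated females were frozen 6 hours after mating. Each array held RNA from a pool of 8 whole females, with 4 arrays from independent extractions in each group, so spread between females within a pool was averaged out.

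Fatty acids are built from acetyl-CoA, which the cytosol obtains from citrate or from acetate. Acetyl-CoA carboxylase turns it into malonyl-CoA, fatty acid synthase assembles the chain, and elongases, desaturases and acyltransferases then shape the product into membrane lipid, storage fat, cuticular hydrocarbons or egg lipid. In adult flies the main sites of this work are the fat body, which combines functions of liver and adipose tissue, and the oenocytes, cells under the cuticle that make hydrocarbons.

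All levels below are log2 RMA values, in which a step of 1 is a doubling of probe set signal, and they are compared between groups but not between genes. Medians of the 12 arrays ran from 5.97 to 6.07. Double mated replicate 4 stood apart, with a deviation from the mean of its 3 group mates whose SD across probe sets was 0.245, while no other array exceeded 0.185. On the first principal component of all tested probe sets, the main axis of variation among the arrays, it lay at 9.56. Its group mates lay between 18.3 and 25.3 there, and single mated arrays between -1.84 and 8.78. The 3' minus 5' signal difference of the GAPDH control transcript, a sign of RNA integrity or labelling, lay between 1.04 and 1.07 on virgin arrays, between 1.20 and 1.39 on single mated arrays and between 1.26 and 1.55 on double mated arrays, so mated and virgin arrays did not overlap. For the actin and eIF-4a controls they did overlap, with virgin arrays up to 0.78 and 0.75, single mated arrays from 0.70 for both and double mated arrays from 0.71 and 0.67. Double mated replicate 4 had the highest such difference for the actin (1.38) and eIF-4a (1.498) controls. The part of these differences in the results below was not tested. In whole-body extracts, more cells of a type and more RNA per cell cannot be told apart.

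Mating was accompanied by higher levels of most of the 8 genes. A gene was called changed at an adjusted p under 0.05 in limma, with Benjamini-Hochberg adjustment over all 18769 probe sets. Against virgins, 5 of 8 rose in single mated females, where 9.66% of all probe sets changed, 4.49% upward and 5.17% downward. In double mated females 6 of 8 rose, where 28.1% changed, 12.3% upward and 15.7% downward. None of the 8 fell in either comparison. These shares include many dim probe sets. With probe sets left out that were above 6 on fewer than 4 arrays, 5 of 7 genes and 2476 of 9560 probe sets were called in single mated females, 998 of the latter upward. In double mated females these were 6 of 7 genes and 5268 of 9560 probe sets, 2240 upward. The F test over the 3 groups called 6 of 8, against 24.9% of all probe sets. The median change of the 8 was 0.26 after 1 mating and 0.44 after a second, with 0.00 and -0.02 over all probe sets. Both comparisons share the virgin arrays. Counted by arrays instead, the 4 single mated values of 5 genes lay wholly above the virgin values, where 20.8% of probe sets had groups that did not overlap and 8.28% lay higher. For 6 genes the 4 double mated values did so, where the shares were 27.9% and 11.6%, and for 5 genes all 8 mated values did so, where they were 15.2% and 5.51%. The shares of increases and decreases among all called probe sets moved with scaling: 46.5% of single mated calls and 43.9% of double mated calls were increases, against 63.2% and 53.4% under cyclic loess and 25% and 29.1% after median centring of the arrays. The median change of the 8 genes stayed positive under both scalings, at 0.31 and 0.21 for single mated and 0.51 and 0.37 for double mated females.

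**Figure D1:**
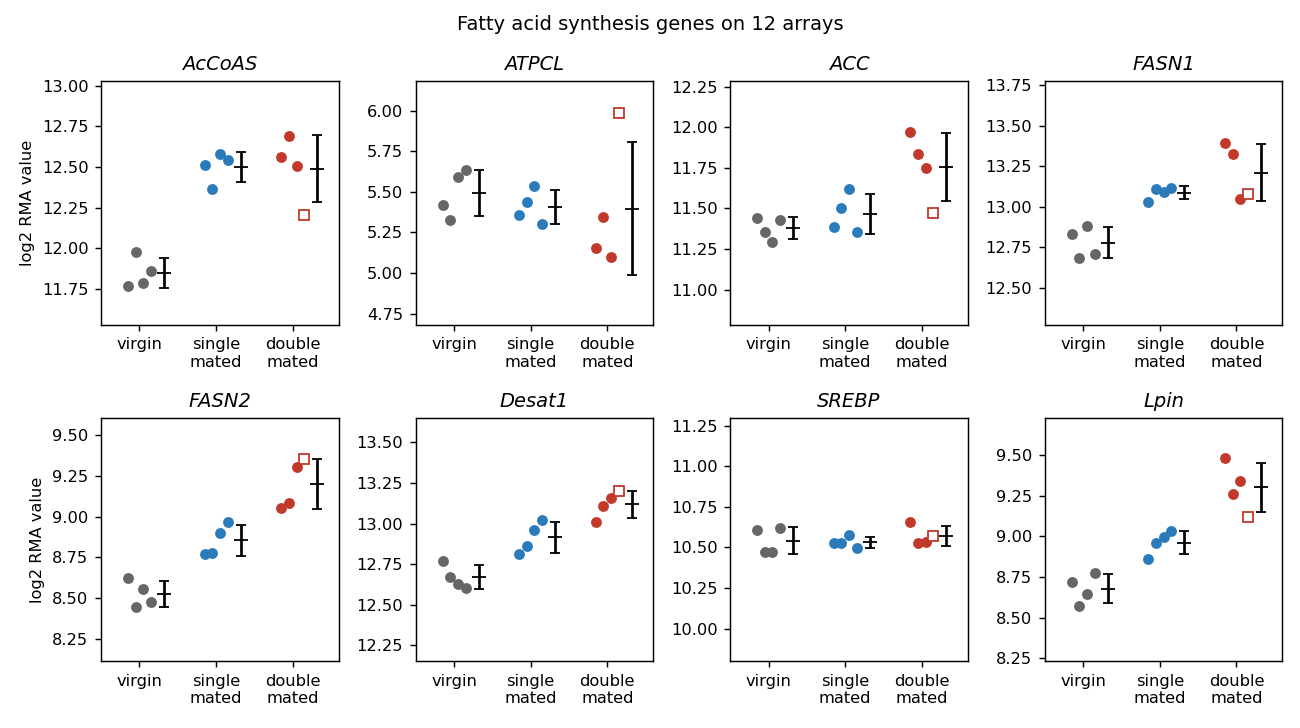
Log2 RMA value (vertical axis, 1.5 log2 units in each panel) of 8 fatty acid synthesis genes on 4 arrays in each of 3 groups. Points are arrays in order of replicate number, the open square is double mated replicate 4, and black bars are the group mean ± SD (n = 4). AcCoAS was high in both mated groups, FASN2 and Lpin were higher again after a second mating, and SREBP lay at 10.54, 10.53 and 10.57 in the 3 groups.

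The first genes of the pathway supply acetyl-CoA. AcCoAS encodes the acetyl-CoA synthase that activates acetate. It measured 11.77, 11.98, 11.79 and 11.86 in the virgin pools, 12.51, 12.36, 12.58 and 12.54 in the single mated pools and 12.56, 12.69, 12.50 and 12.20 in the double mated pools. All 8 mated arrays lay above all 4 virgin arrays, and the 2 mated groups overlapped. The rise was 1.57-fold after 1 mating (95% interval 1.37 to 1.80, limma adjusted p = 0.00102) and 1.56-fold after 2 (1.36 to 1.79, adjusted p = 1.48e-04). Double minus single mated was -0.01 on the log2 scale (95% interval -0.21 to 0.19, adjusted p = 0.967), and the sign became positive without double mated replicate 4, the lowest mated array, at 0.085.

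ATPCL encodes ATP citrate lyase, which cleaves exported citrate to acetyl-CoA in the cytosol. It measured 5.42, 5.33, 5.59 and 5.64 in the virgin pools, 5.35, 5.44, 5.54 and 5.30 in the single mated pools and 5.15, 5.34, 5.10 and 5.99 in the double mated pools. The 3 groups overlapped, and double mated replicate 4 was the highest of the 12 arrays. ATPCL was not called in any comparison (double minus virgin -0.10, 95% interval -0.42 to 0.23, limma adjusted p = 0.701). Without double mated replicate 4 this difference was -0.30 and was called (adjusted p = 0.0217). The ATPCL probe set was dim, with 44.1% of probe sets dimmer on average, and a dim probe set understates change.

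ACC, acetyl-CoA carboxylase, makes malonyl-CoA in the committed step of the pathway. Its values were 11.44, 11.35, 11.29 and 11.43 in the virgin pools, 11.39, 11.50, 11.62 and 11.35 in the single mated pools and 11.97, 11.83, 11.75 and 11.47 in the double mated pools. Single mated and virgin arrays overlapped, whereas every double mated array was above every virgin array. ACC rose 1.30-fold in double mated females against virgins (95% interval 1.13 to 1.49, limma adjusted p = 0.00743) and measured 1.06-fold in single mated females (0.922 to 1.22, adjusted p = 0.632). The difference between the mated groups was 0.29 (SE 0.09) and missed the threshold (limma adjusted p = 0.0875). Without double mated replicate 4, the lowest array of its group, it was 0.39 and passed (adjusted p = 0.00780), and the change of all mated females against virgins, which also missed (0.23, adjusted p = 0.0531), became 0.28 (adjusted p = 0.00480).

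FASN1 and FASN2 encode fatty acid synthases, the multidomain enzymes that extend the chain from malonyl-CoA. They are neighbouring protein-coding genes on chromosome arm 2L in the RefSeq table. FASN1 is known from the fat body and FASN2 from the oenocytes. FASN1 measured 12.83, 12.69, 12.88 and 12.71 in the virgin pools, 13.03, 13.11, 13.09 and 13.12 in the single mated pools and 13.39, 13.32, 13.05 and 13.08 in the double mated pools. All 8 mated arrays exceeded all virgin arrays, and the mated groups overlapped. FASN1 rose 1.24-fold after 1 mating (95% interval 1.10 to 1.40, limma adjusted p = 0.0278) and 1.35-fold after 2 (1.20 to 1.52, adjusted p = 0.00104), and the difference of 0.12 between the mated groups (95% interval -0.05 to 0.30) was not called (adjusted p = 0.404).

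FASN2 measured 8.62, 8.45, 8.56 and 8.47 in the virgin pools, 8.77, 8.78, 8.90 and 8.97 in the single mated pools and 9.05, 9.08, 9.30 and 9.36 in the double mated pools. The 3 groups did not overlap and lay in the order virgin, single mated, double mated. Against virgins FASN2 rose 1.26-fold (95% interval 1.12 to 1.41, limma adjusted p = 0.0191) and 1.60-fold (1.42 to 1.80, adjusted p = 3.84e-05). It was 1.27-fold higher in double than in single mated females (1.13 to 1.43, adjusted p = 0.0221). FASN3, the third fatty acid synthase gene, lies on 3L and is not among the 8. Its mean was 10.04 ± 0.13 (SD, n = 4) for virgins, 10.47 ± 0.07 for single and 10.66 ± 0.26 for double mated females, and it rose in both mated groups (limma adjusted p = 0.0217 and 6.22e-04), and its difference of 0.18 between the mated groups was not called (adjusted p = 0.343).

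Desat1 is the delta-9 desaturase that makes monounsaturated acyl chains for membranes, storage fat and hydrocarbons. It measured 12.77, 12.67, 12.63 and 12.61 in the virgin pools, 12.82, 12.86, 12.96 and 13.02 in the single mated pools and 13.01, 13.11, 13.16 and 13.20 in the double mated pools. All mated arrays were above all virgin arrays, and 3 of 4 double mated arrays were above every single mated array. The rise was 1.19-fold after 1 mating (95% interval 1.07 to 1.31, limma adjusted p = 0.0321) and 1.37-fold after 2 (1.24 to 1.51, adjusted p = 1.85e-04). The step of 0.20 (SE 0.07) between the mated groups was not called (adjusted p = 0.0901). It passed under cyclic loess (0.24, limma adjusted p = 0.0433). With dim probe sets left out (0.0484) or with a variance trend and robust fit (0.0461) it also passed.

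Lpin encodes lipin, the phosphatidate phosphatase that forms diacylglycerol for storage fat and phospholipid. It measured 8.72, 8.57, 8.64 and 8.77 in the virgin pools, 8.86, 8.96, 8.99 and 9.03 in the single mated pools and 9.48, 9.26, 9.34 and 9.12 in the double mated pools. As for FASN2, the 3 groups did not overlap and stood in the order of the number of matings. Lpin rose 1.22-fold after 1 mating (95% interval 1.08 to 1.37, limma adjusted p = 0.0336) and 1.54-fold after 2 (1.37 to 1.73, adjusted p = 5.44e-05), and was 1.27-fold higher in double than in single mated females (1.13 to 1.42, adjusted p = 0.0209).

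SREBP is the membrane-bound transcription factor that is cut free by proteases and switches on lipogenic genes, in flies when phosphatidylethanolamine runs low. Its 12 values lay between 10.47 and 10.65 and the groups overlapped throughout. Changes of -0.01 after 1 mating (95% interval -0.13 to 0.12) and 0.03 after 2 (-0.10 to 0.15) were not called (limma adjusted p = 0.945 and 0.779), and their sign varied with scaling. Under cyclic loess the change in double mated females was 0.13 (limma adjusted p = 0.117), also not called. The array does not measure cleavage of the protein.

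**Figure D2:**
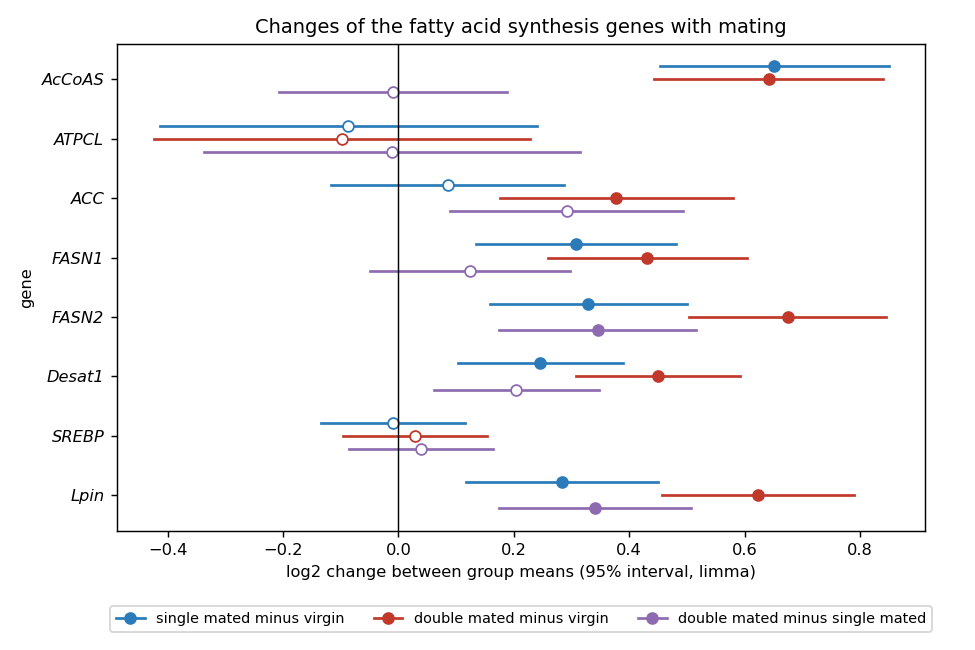
Log2 change between group means (horizontal axis, points) with 95% intervals from limma (lines) for 8 fatty acid synthesis genes (vertical axis) in 3 comparisons, filled where the adjusted p was under 0.05. AcCoAS shows rises of 0.65 and 0.64 against virgins, and FASN2 (0.35) and Lpin (0.34) carry the 2 filled points for double against single mated.

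Double and single mated females were set against each other to show what a second mating on the following day, and an earlier first one, went with. Here 2 of the 8 genes rose and none fell, FASN2 and Lpin, where 5.29% of all probe sets changed, 3.55% upward and 1.74% downward. They are also the 2 genes whose double mated arrays all lay above the single mated arrays, as for 5.63% of probe sets, with 11% not overlapping in either direction. The median change of the 8 was 0.16, against -0.03 over all probe sets. With dim probe sets left out, 3 of 7 genes and 1350 of 9560 probe sets were called, 851 of the latter upward. The calls of FASN2 and Lpin rest close to the threshold: with only these 2 groups in the fit, they had adjusted p-values of 0.0608 and 0.0549. Leaving out single mated replicate 1 or 2 or double mated replicate 3 also ended both calls (adjusted p 0.0560 to 0.0718), and leaving out double mated replicate 1 ended that of Lpin (adjusted p = 0.0521). Number of matings and time since the first mating differ together between these groups and cannot be told apart.

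Whether the step from 1 to 2 matings differed between genes was tested within arrays. The log2 difference of each of the other 5 called genes from AcCoAS was compared between double and single mated arrays, a choice made after the values were seen. The difference grew by 0.30 for ACC, 0.35 for Lpin, 0.36 for FASN2, 0.21 for Desat1 and 0.13 for FASN1. In 2-sided exact permutation tests the unadjusted p-values were 0.0286 for ACC, the smallest that 4 against 4 arrays can give, 0.0571 for Lpin, 0.0857 for FASN2 and 0.200 for both Desat1 and FASN1. Adjusted over the 5, the smallest was 0.143. AcCoAS was taken as the reference after its lack of a step was seen, and at this number of arrays the adjusted p can pass only where at least 3 of the 5 genes reach the smallest p, so these tests do not settle whether the steps differed.

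The single mated calls differed in how firmly they held. Over 22 alternatives of scaling, filter, model, threshold and left-out array, AcCoAS was called in all. Calls of FASN2, FASN1, Desat1 and Lpin ended under 5, 8, 9 and 10 of them, and adjusted p-values reached 0.0707, 0.0802, 0.108 and 0.104. With virgin replicate 2, single mated replicate 3 or single mated replicate 4 left out, AcCoAS was the 1 gene of the 8 still called. Without virgin replicate 4 or single mated replicate 2 there were 2 and without virgin replicate 3 there were 3. The log2 changes of these 5 genes stayed positive under all 22. In double mated females against virgins the 6 calls held under all 22.

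Profiles like those of the called genes were sought among all 11982 genes by the root mean square difference of values centred on each gene's own mean over the 12 arrays. CG9864 (0.0854) and CG31248 (0.0902) were nearest to AcCoAS, whose own spread by this measure was 0.329. For FASN2 (own spread 0.293) they were ben (0.0831) and Amph (0.0848), and for Lpin (0.272) CG42319 (0.0779) and tna (0.0783). Cirl (0.0609) and rtp (0.0868) were nearest to ACC (0.205). CG33258 (0.0764) and CG14073 (0.0822) were nearest to FASN1 (0.208), and pAbp (0.0585) and Oda (0.0598) to Desat1 (0.198). None of the 8 genes was among the nearest 2 of another.

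Genes that supply, extend, use or control fatty acids were counted in 7 lists for mated females (the mean of both mated groups) against virgins, where 24.5% of all probe sets changed, 10.3% rose and 14.2% fell. Increases were 41.9% of those calls, 53% under cyclic loess and 26.3% after median centring. With dim probe sets left out, the changed share was larger, at 4784 of 9560, 1892 upward and 2892 downward. The lists below were counted without that filter. Of the 8 genes themselves 5 rose, with a median of 0.36. Fatty acid elongation had 13 of 22 measured genes higher and none lower, with a median change of 0.42 against 0.00 over all probe sets. These enzymes add carbon pairs to preformed chains. The predicted elongases CG5326, CG31522, CG18609 and CG31523 rose by 1.10 (SE 0.12), 0.68 (SE 0.08), 0.60 (SE 0.12) and 0.50 (SE 0.06) (limma adjusted p 3.77e-05, 6.38e-05, 0.00279 and 5.82e-05). CG5326 averaged 8.70 ± 0.25 for virgins, 9.58 ± 0.11 for single and 10.03 ± 0.30 for double mated females (SD, n = 4). Between the mated groups 6 of the 22 elongation genes rose and none fell, led by CG18609 with 0.87 (SE 0.14, adjusted p = 0.00378), where 3.55% of all probe sets rose. Without double mated replicate 4, 11 of the 22 rose, while calls over all probe sets went from 992 to 2171 and those upward from 666 to 1186.

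Among 8 other desaturases 3 rose and none fell, the predicted desaturases CG15531 (0.74, SE 0.10), CG9747 (0.62, SE 0.17) and CG9743 (0.36, SE 0.10). The calls of CG9747 and CG9743 ended without virgin replicate 3 (limma adjusted p = 0.0637 and 0.0558), and that of CG9743 also without virgin replicate 2 (0.0516). Of 6 measured genes for precursors, NADPH and the biotin ligase, in a list of 12 that also holds FASN3, 2 rose, FASN3 and pyruvate carboxylase PCB, and none fell. PCB rose by 0.32 (SE 0.06), and another of its probe sets, more variable over the arrays, gave 0.22 and was not called (limma adjusted p = 0.308). Genes of that list without a probe set of a single gene symbol were Pdha, Pdhb, kdn, sea, and Zw and Pgd of NADPH supply, so that supply was measured only in part. The malic enzyme Men (0.06) and isocitrate dehydrogenase Idh (-0.01), sources of NADPH, were not called (adjusted p = 0.534 and 0.930). For Idh the mated groups lay on either side of the virgin mean, at 12.88 in virgin, 12.96 in single and 12.78 in double mated females, and all 4 double mated arrays were below all other arrays, although its differences were not called (double minus virgin -0.10, adjusted p = 0.209, and double minus single mated -0.18, adjusted p = 0.0686). Not called either was a second malic enzyme gene, Men-b (-0.17, adjusted p = 0.0665), which did fall in double mated females against virgins (-0.24, adjusted p = 0.0261).

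Acyl-CoA activation and binding had 3 of 13 genes higher and 3 lower. The long-chain acyl-CoA synthetase Acsl rose by 0.45 (SE 0.07) and the acyl-CoA binding protein genes Acbp3 and Acbp5 by 0.69 (SE 0.18) and 0.51 (SE 0.10), while the fatty acid transport protein gene Fatp3 fell by 0.38 (SE 0.07). Acbp1 averaged 10.77, 10.55 and 10.62 in virgin, single and double mated females, and the acyl-CoA synthetase gene bgm 11.84, 11.68 and 11.59. For each of these 2, 7 of 8 mated arrays lay below all virgin arrays. Glycerolipid synthesis had 8 of 14 higher and 1 lower, with a median of 0.22. Among those with the lowest F test p, 3 act in phospholipid synthesis: Pect, for phosphatidylethanolamine, rose by 0.41 (SE 0.05), Pcyt1, for phosphatidylcholine, by 0.35 (SE 0.04) and the phosphotransferase gene bbc by 0.23 (SE 0.05). Dgat2, a diacylglycerol acyltransferase gene of storage fat, rose by 0.28 (SE 0.06), on a dim probe set with 52.5% of probe sets dimmer on average. The brighter mdy, another diacylglycerol acyltransferase gene of the list, averaged 9.99, 9.86 and 10.09 in virgin, single and double mated females. For mdy, 3 of 4 single mated arrays lay below all virgin arrays and all 4 double mated arrays above them.

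In the list of lipolysis and beta-oxidation, 5 of 10 measured genes were lower and none higher, with a median of -0.16. The lipase gene bmm averaged 10.69, 10.65 and 10.63 in virgin, single and double mated females, and the 3 groups overlapped. CPT2 averaged 9.63, 9.63 and 9.78 and Acadvl 11.90, 11.93 and 12.05 in the same order. For both, all 4 double mated arrays lay above all virgin arrays, and neither rise was called. The thiolase yip2 averaged 12.63 ± 0.02 for virgins, 12.28 ± 0.08 for single and 12.01 ± 0.13 for double mated females (SD, n = 4), a fall of 0.49 (SE 0.06, limma adjusted p = 6.63e-05), and all 8 mated arrays were below all virgin arrays. The trifunctional protein subunit gene Mtpbeta fell by 0.21 (SE 0.05) and enoyl-CoA hydratase Echs1 by 0.19 (SE 0.05). Under cyclic loess 1 of the 10 was lower and 1 higher, and Mtpbeta and Echs1 were not (adjusted p = 0.0593 and 0.122). The carnitine palmitoyltransferase gene whd, at the entry to the mitochondrion, measured -0.15 (SE 0.07) for both mated groups together and was not called (adjusted p = 0.137), but passed after median centring (0.0401), with a trend on gene span removed (0.0455) and without double mated replicate 1 (0.0453). Its means were 11.34, 11.05 and 11.33 in virgin, single and double mated females. All 4 single mated arrays lay below all virgin and all double mated arrays. The fall in single mated females was called (-0.29, SE 0.08, limma adjusted p = 0.0330), and double mated females differed from virgins by -0.01 (adjusted p = 0.948) and from single mated females by 0.28 (adjusted p = 0.0565).

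Of 14 regulators 3 rose and 1 fell, so 28.6% were called, near the 24.5% of all probe sets. Without regard to sign their median change was 0.06, below the 0.10 over all probe sets. The zinc finger gene sug (sugarbabe), a sugar-induced activator of lipogenic genes in larvae, averaged 8.57 ± 0.11 for virgins, 9.15 ± 0.13 for single and 9.57 ± 0.10 for double mated females (SD, n = 4), and the 3 groups did not overlap. It rose by 0.79 (SE 0.07, limma adjusted p = 1.01e-05) with mating and was higher by 0.42 (SE 0.08, adjusted p = 0.00831) in double than in single mated females. Mondo, the sugar-sensing partner of Mlx-type factors, rose by 0.27 (SE 0.05) and cbt (cabut), a repressor in the same sugar response, by 0.29 (SE 0.06). Of the SREBP processing machinery, the site-1 protease gene S1P fell by 0.37 (SE 0.09, adjusted p = 0.00800), and the escort gene SCAP measured -0.12 (SE 0.06, adjusted p = 0.166), which passed after median centring (-0.18, adjusted p = 0.0368).

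**Figure D3:**
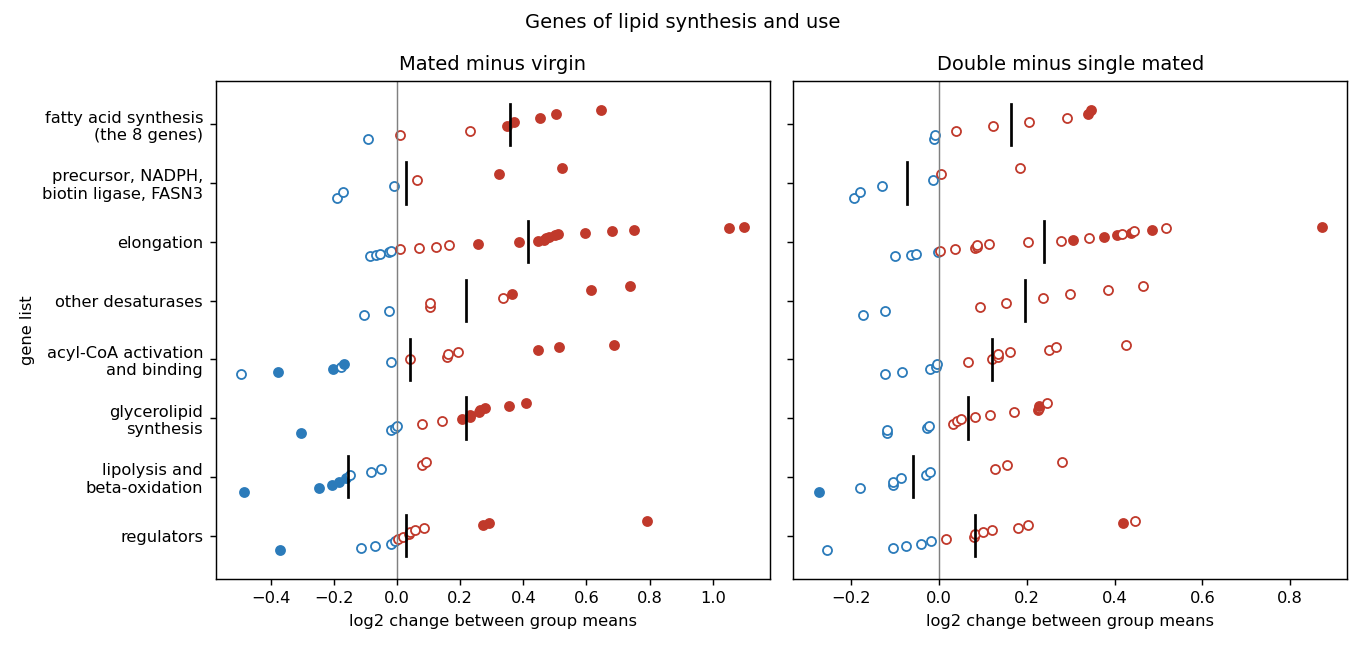
Log2 change between group means (horizontal axes) of genes in 8 lists (vertical axis), for mated against virgin (left) and double against single mated females (right). Each point is a gene, red above 0 and blue below, filled where the limma adjusted p was under 0.05, and black bars are list medians, such as 0.42 for elongation and -0.16 for lipolysis and beta-oxidation on the left.

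Markers of the tissues that make or take up lipid moved in the same comparison. Of 8 fat body markers 4 rose and 1 fell, Lsp2, with means of 12.29, 11.73 and 11.43 in virgin, single and double mated females. Their signal summed before taking the log2 lay between 16.68 and 16.82 for virgins, between 16.85 and 16.94 for single and between 16.90 and 16.92 for double mated arrays. This sum weighs the bright Yp1, Yp2 and Yp3 most. The mean of the 8 log2 values lay at 11.80 to 11.93, 12.00 to 12.22 and 11.97 to 12.12 in the same order. Of 6 oenocyte markers 4 rose, with summed levels of 14.61 to 14.78, 14.80 to 14.90 and 14.99 to 15.12. Fad2 and 3 elongation genes of that list (eloF, spidey and bond) also stand in the lists above. Of 12 follicle cell markers 6 rose, with summed levels of 16.96 to 17.33, 17.13 to 17.43 and 17.34 to 17.68. The follicle cell markers did not move alike. All 4 double mated arrays lay above all virgin arrays for dec, psd and the measured Vm genes, but for none of the chorion (Cp) genes. Of 7 midgut markers 5 rose and 1 fell, with summed levels of 16.22 to 16.38, 16.40 to 16.53 and 16.62 to 16.72. Virgin arrays thus lay below all mated arrays for the fat body, oenocyte and midgut lists. The part of tissue composition in the changes of the 8 genes was not tested. The yolk protein genes Yp1, Yp2 and Yp3, a mark of adult females, were among the brightest probe sets, and all 8 mated arrays lay above all virgin arrays for each. Yp2 averaged 14.87, 15.08 and 15.14 in virgin, single and double mated females and rose by 0.25 (SE 0.05, limma adjusted p = 0.00229). Changes of 0.10 (SE 0.04) for Yp1 and 0.09 (SE 0.04) for Yp3 were not called (adjusted p = 0.124 and 0.185).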

How the data were processed

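The deposited table holds log2 RMA values, 1 per probe set and array, on Affymetrix Drosophila Genome 2.0 arrays. Per the submitters' processing notes the authors used RMA and the affy package, and versions are not given in the sources used here. RMA includes quantile normalization, which can hide shifts common to most genes. Arrays give no read depth, and their number limits the precision. Of 18952 probe sets, 183 Affymetrix controls were left out and no filter on signal was applied. Of the 18769 tested, 13647 had 1 gene symbol, 402 several and 4720 none. Where probe sets shared a gene, the brightest on average stood for it.

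Groups were fitted to all 12 arrays with limma 3.58.1 in R 4.3.3 (lmFit, eBayes), with an F test over the 3 groups. The code was also run on simulated data in which few probe sets shifted, equally in both mated groups. Far more probe sets changed here, so that run does not bear on the calls above. The labels name no batch. Alternatives changed the scaling, filter, model, threshold and arrays used. Members and gene lists were chosen with earlier results of these data known. Named are the 8 genes, up to 4 called genes of each list by F test p, FASN3, SCAP and the 2 nearest profiles of each called member. Men, Men-b, Idh, mdy, bmm, CPT2, Acadvl, Acbp1, bgm, the marker genes and probe set comparisons were named after their values were seen. RefSeq tables (Release 6) served for names, neighbours and gene span.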

Additional observations from a re-analysis of the deposited data

Results flagged for a closer look

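Among 102 groups of 4 arrays (34 named genes in 3 groups), 5 held an array whose gap to its nearest neighbour was over 0.829 of the group's range, where chance flags about 1 in 20 groups. None was in the 8 genes. Of the 5, 3 were in double mated replicate 4, which was lowest of its group for CG9743 (9.08, next 9.54), Pect (11.29, next 11.44) and Echs1 (12.08, next 12.26). Virgin replicate 4 was highest for CG31523 (10.87, next 10.76) and single mated replicate 1 for S1P (8.49, next 8.24).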

How the results depend on the processing

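For the 8 genes, no call of mated or double mated against virgin females ended under the alternatives run, and ACC passed for mated against virgin under 6 of 21. The 5 single mated calls became 2 with the replicate block, 2 after median centring and 1 at an adjusted p under 0.01, and 1 to 5 without single arrays. The 2 calls of double against single mated became 1 with the replicate block, which ended that of Lpin (limma adjusted p = 0.0534). Those 2 became 0 with only these groups fitted and 0 at 0.01, and 0 to 3 without single arrays. They became 3, with Desat1 added, under cyclic loess, with dim probe sets left out and with a variance trend and robust fit. Array weights also gave 3, with ACC added (limma adjusted p = 0.0216). Same-numbered arrays did not deviate together (12 correlations between -0.26 and 0.14, 1 over 0.1). The labels name no batch, so whether same-numbered arrays were handled together is not known. The block changed no other count of the 8. Among all probe sets, calls at 0.01 were 2866 of 4594 for mated, 606 of 1813 for single mated, 307 of 992 for double against single mated and 2898 of 4669 for the F test. Array weights gave 2953 single mated and 2195 double against single mated calls, and for the latter the replicate block gave 661 and only these groups 550. Without single arrays, single mated calls ran from 857 (single mated replicate 4) to 2698 (double mated replicate 4), and double against single mated calls from 527 (single mated replicate 2) to 2171 (double mated replicate 4). Changes near 0 that were not called turned sign. SREBP was -0.054 for mated and -0.039 for double mated against virgin after median centring, and for single mated 0.059 under cyclic loess, 0.00065 with array weights and 0.0022 with a trend on gene span removed. Without single arrays it ran from -0.014 to 0.036 for mated and from -0.034 to 0.016 for single mated. Double minus single mated was 0.024 under cyclic loess and 0.081 with array weights for AcCoAS, and 0.0017 under cyclic loess for ATPCL. Without single arrays it ran from -0.076 to 0.085 for AcCoAS and from -0.21 to 0.088 for ATPCL, and double mated minus virgin from -0.30 to 0.00095 for ATPCL. Causes were not tested. Gene span, chosen after seeing the data, replaced the planned product length, which was not run. ATPCL dropped out with dim probe sets removed, and its low signal limits what could be detected.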
